A study of Rattus norvegicus with 12 samples.

Results

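Small nucleolar RNAs (snoRNAs) and small Cajal body RNAs were followed through 4 preparations of mitochondria from rat skeletal muscle. The genes were taken from the deposited table by name. A gene counted if its name began with SNOR, Snor, SCARNA or Scarna or was U3 or U8, and if its raw reads summed to 60 or more over the 12 libraries. Of 30560 genes in the table, 348 matched by name and 159 reached that sum. The reads that chose the genes are also the reads described here, so the members were chosen by measured raw read sums and their abundance is a description, not a finding.

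All RNA came from hindlimb muscle of 1 male wild-type Wistar Kyoto rat aged 14 weeks, homogenised and pooled, and the 12 libraries are aliquots of that homogenate. For mitoplast_RNase, bead-captured mitochondria were turned into mitoplasts by removal of the outer membrane. The IP_RNase_ProK group held mitochondria captured by magnetic-bead immunoprecipitation and treated with proteinase K as well as RNase A. The IP_RNase group held captured mitochondria with RNase A alone, and the crude_RNase group held mitochondria isolated by differential centrifugation with RNase A alone. The first 3 groups, 9 libraries in all, are called the captured groups. RNase A was common to all 4 groups, each with 3 libraries. Libraries were depleted of ribosomal RNA and made from 40 ng of RNA in the mitoplast_RNase, IP_RNase_ProK and IP_RNase groups and from 6.3 ng in crude_RNase, so RNA input and isolation method cannot be told apart in any comparison with crude_RNase.

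C/D box snoRNAs guide the 2'-O-methylation of ribosomal RNA, H/ACA box snoRNAs guide its pseudouridylation, and small Cajal body RNAs guide the same changes in spliceosomal RNAs. A few snoRNAs, U3 and U8 among them, act in the cleavage of the ribosomal RNA precursor instead. These RNAs work in the nucleolus and in Cajal bodies, and most mammalian ones are cut from introns of host genes.

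By name, 91 of the 159 genes belonged to the C/D box class, 65 to the H/ACA box class and 2, Scarna6 and Scarna10, to the Cajal body class. The remaining gene, Snorc, is a cartilage proteoglycan gene that the name rule takes in and that RefSeq lists as protein-coding. It also had the largest sum, 738 reads, against 318 for the highest RNA gene. The 159 genes carried 52 distinct names, because many identifiers shared one: 36 were called SNORA70, 25 SNORD115, 22 U3, 9 SNORD116 and 8 SNORA71. Of these names, 25 matched a RefSeq symbol and 23 of those were listed as snoRNA. Reads from near-identical copies may have been divided among identifiers or dropped, so the value of a single copy is uncertain.

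Reads were few. The 159 genes had 1908 gene-by-library values with a median of 8 reads, and 5 of these (0.262%) were 0. A total of 154 genes had at least 1 read in all 12 libraries, and 23 exceeded 20 reads in any library. The median sum over 12 libraries was 88 reads for C/D box genes and 108 for H/ACA box genes. Just inside the threshold lay SNORD116 (ENSRNOG00000065172) with 60 reads, SNORD16 (ENSRNOG00000069223) with 61 and SNORD96 (ENSRNOG00000060502) with 62. Just outside it lay U3 (ENSRNOG00000063343) with 59, Snord19 (ENSRNOG00000053586) with 58 and SNORD115 (ENSRNOG00000071006) with 57. As a yardstick for weak reads, 1117 olfactory receptor genes, which muscle does not normally transcribe, had a median of 37 to 49 reads per library in the 9 captured libraries and 30 to 34 in crude_RNase. The median of the 159 genes was 7 to 10 reads in the captured libraries and 7 to 8 in crude_RNase. Neither value is corrected for gene length.

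Library totals were 3325430 to 4563254 reads in the captured groups and 6583452 to 7123045 in crude_RNase, and the mitochondrial chromosome took 2.06 to 10.9% of captured reads and 41.2 to 54.0% of crude_RNase reads. TMM scaling factors were 1.12 to 1.23 in captured libraries and 0.525 to 0.679 in crude_RNase. The 7 muscle fibre markers in the table, all tested, were lower in all 3 captured groups than in crude_RNase, with summed levels of 1468 to 3044 CPM (reads scaled to a common TMM-adjusted library size) against 6502 to 19520 CPM. Ttn was the largest of the 7, with group means of 1243 to 1889 CPM in the captured groups. In crude_RNase it had 6523 ± 6520 CPM, from 9936 to 52393 reads per library. Summed levels of 8 markers of other muscle cells were 459 to 499 CPM in the captured groups and 1395 to 1462 CPM in crude_RNase. In IP_RNase 3 of them were lower than in crude_RNase: Col1a1, Col3a1 (fibroblast) and Hba-a2 (erythroid). Most of the crude_RNase sum came from the collagens. Mean Col1a1 was 114 to 128 CPM in the captured groups and 491 in crude_RNase, and mean Col3a1 51.7 to 64.2 and 615. The other 5, Pecam1, Cdh5, Ptprc, Cd68 and Pax7, were not called in IP_RNase against crude_RNase. In bulk preparations, fewer nuclei or cells of a type and less RNA in each cannot be told apart.

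The summed share of the 159 genes depended on what it was measured against. Of all gene reads, they took 0.0403 ± 0.00279% in mitoplast_RNase, 0.0394 ± 0.000639% in IP_RNase_ProK, 0.0407 ± 0.000698% in IP_RNase and 0.0197 ± 0.00152% in crude_RNase (mean ± SD, n = 3 each). All 9 captured libraries lay between 0.0374 and 0.0430%, and the 3 crude_RNase libraries between 0.0185 and 0.0214%, so the ranges did not overlap. With reads of the mitochondrial chromosome left out, the shares were 0.0417 ± 0.00309%, 0.0405 ± 0.00039% and 0.0436 ± 0.00249% in mitoplast_RNase, IP_RNase_ProK and IP_RNase, and 0.0393 ± 0.00255% in crude_RNase, and the ranges overlapped. Per 100 reads of olfactory receptor genes, the 159 genes had 2.60 ± 0.0959, 2.51 ± 0.0477 and 2.54 ± 0.209 reads in mitoplast_RNase, IP_RNase_ProK and IP_RNase and 2.90 ± 0.0131 in crude_RNase. On that scale crude_RNase lay above every captured library, the opposite order to the share of all reads. On the TMM scale, the summed level was 333 ± 24.1 CPM in mitoplast_RNase, 323 ± 3.55 in IP_RNase_ProK, 348 ± 19.6 in IP_RNase and 345 ± 26.2 in crude_RNase.

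**Figure D1:**
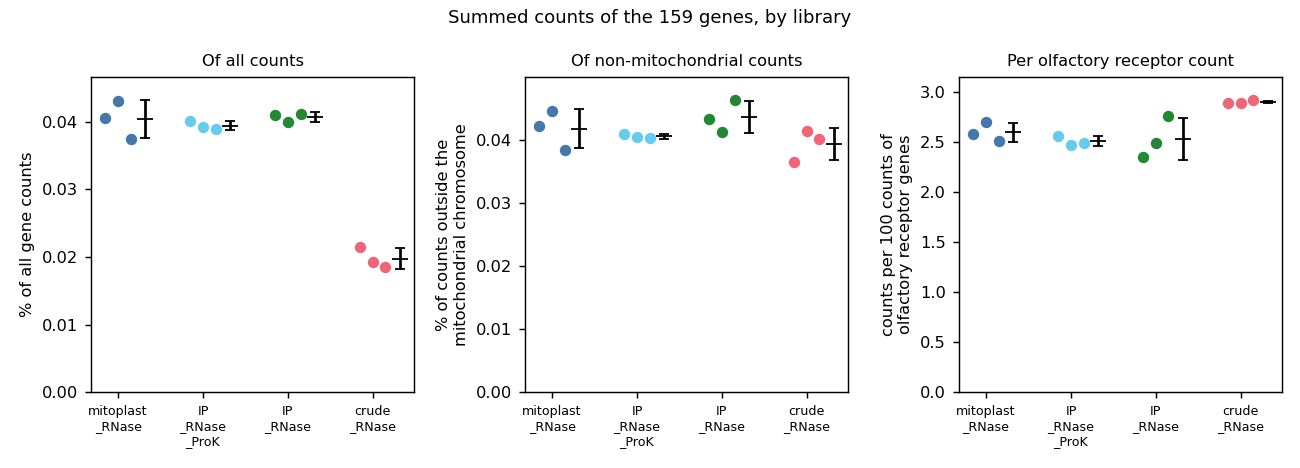
Summed reads of the 159 genes in each of the 12 libraries as a percent of all gene reads (left), as a percent of reads outside the mitochondrial chromosome (middle) and per 100 reads of olfactory receptor genes (right); points are libraries, and the bar beside them is the group mean with its SD (n = 3). The crude_RNase libraries lie at 0.0185 to 0.0214% of all reads, below every captured library, and at 2.90 to 2.92 per 100 olfactory receptor reads, above every captured library.

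For single genes, edgeR's quasi-likelihood test was run over the whole table, and 85 of the 159 genes (37 C/D box, 45 H/ACA box, both Cajal body genes and Snorc) had enough reads to enter it. The other 74 were not tested. The filter used library totals with mitochondrial reads included, so a gene needed more reads in a crude_RNase library than in a captured one. Genes high in the captured groups therefore entered more easily. A gene was called at a Benjamini-Hochberg adjusted p under 0.05, and each log2 fold change is given with its SE.

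U3, the C/D box RNA that acts in the first cleavages of the 18S ribosomal RNA precursor, held the RNA gene with the most reads. That copy, ENSRNOG00000068470, had 26, 25 and 17 reads in mitoplast_RNase, 28, 26 and 10 in IP_RNase_ProK, 53, 37 and 33 in IP_RNase and 23, 18 and 22 in crude_RNase. The IP_RNase libraries were the 3 highest, and scaled to CPM they did not overlap with any other group. The level was higher in IP_RNase than in crude_RNase by 0.85 ± 0.267 (log2 fold change ± SE, edgeR adjusted p = 0.0401). It was lower in IP_RNase_ProK than in IP_RNase, and the log2 fold change was -1.16 ± 0.265 (edgeR adjusted p = 0.0475). The corresponding value for mitoplast_RNase against IP_RNase was -1.04 ± 0.262, which did not pass (edgeR adjusted p = 0.0988). These 3 comparisons share the IP_RNase libraries. The call against crude_RNase was lost without IP_RNase replicate 1 (edgeR adjusted p = 0.321) or 2 (0.0700), without crude_RNase replicate 1 (0.0912) or 2 (0.0879), when scaled on olfactory receptor genes (0.0897) and in DESeq2 (0.120). The call against IP_RNase was lost without IP_RNase_ProK replicate 1 (edgeR adjusted p = 0.121) or 3 (0.350) and without IP_RNase replicate 1 (0.560) or 2 (0.0919). It was also lost with library-size scaling (0.168), with scaling on olfactory receptor genes (0.157) and in DESeq2 with its independent filtering off (0.206).

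Of the 22 U3 copies 5 were tested, and no other one was called. The next highest, ENSRNOG00000061360, had 15, 26 and 14 reads in mitoplast_RNase, 18, 20 and 22 in IP_RNase_ProK, 10, 18 and 15 in IP_RNase and 8, 12 and 17 in crude_RNase, with a log2 fold change of 0.10 ± 0.370 for IP_RNase against crude_RNase (edgeR adjusted p = 0.927). U3 ENSRNOG00000068798 had 8, 9 and 12 reads in mitoplast_RNase, 11, 12 and 11 in IP_RNase_ProK, 15, 14 and 14 in IP_RNase and 12, 13 and 7 in crude_RNase. In CPM its IP_RNase libraries lay above those of mitoplast_RNase and IP_RNase_ProK, as in the called copy, and its log2 fold change for IP_RNase_ProK against IP_RNase was -0.55 (edgeR adjusted p = 0.674). ENSRNOG00000067158 and ENSRNOG00000065933 stood at 0.39 and 0.03 in the same comparison, with edgeR adjusted p = 0.804 and 0.992. The remaining copies had 0 to 18 reads per library. Summed over all 22 copies, U3 levels were 41.3 ± 2.84 CPM in mitoplast_RNase, 39.9 ± 0.917 in IP_RNase_ProK, 44.6 ± 2.52 in IP_RNase and 42.6 ± 3.76 in crude_RNase. The IP_RNase_ProK sums lay below the IP_RNase sums, and the other pairs of groups overlapped. The sums include the called copy ENSRNOG00000068470, so their order is not separate from that call. This copy alone stood at 9.71 ± 2.44 CPM in IP_RNase and 4.30 ± 1.92 in IP_RNase_ProK. Per 100 olfactory receptor reads the sums of these 2 groups overlapped as well (0.304 to 0.315 in IP_RNase_ProK and 0.299 to 0.355 in IP_RNase). U8, which acts in the maturation of the large subunit ribosomal RNAs, had 1 gene (ENSRNOG00000056054) with 6, 14 and 3 reads in mitoplast_RNase, 7, 10 and 2 in IP_RNase_ProK, 0, 7 and 5 in IP_RNase and 11, 8 and 5 in crude_RNase. It was too low to test, and its ranges overlapped in every pair of groups.

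SNORD115 and SNORD116 are C/D box RNAs made from repeated copies in an imprinted cluster that is known, in human, from Prader-Willi syndrome, and in rodents they are known chiefly from brain. SNORD115 ENSRNOG00000067371 had 24, 22 and 19 reads in mitoplast_RNase, 14, 19 and 15 in IP_RNase_ProK, 16, 12 and 16 in IP_RNase and 8, 7 and 2 in crude_RNase. Every captured library was above every crude_RNase library. The gene was higher in mitoplast_RNase than in crude_RNase by 1.62 ± 0.387 (log2 fold change ± SE, edgeR adjusted p = 0.00346). Against the same crude_RNase libraries it stood at 1.16 ± 0.411 in IP_RNase_ProK (edgeR adjusted p = 0.0832) and 1.25 ± 0.416 in IP_RNase (edgeR adjusted p = 0.0598), neither of which passed. The call was kept in 12 of 13 alternatives and lost without crude_RNase replicate 3 (edgeR adjusted p = 0.0519).

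A second copy, SNORD115 ENSRNOG00000064306, varied most between replicates. It had 20, 21 and 18 reads in mitoplast_RNase, 18, 2 and 26 in IP_RNase_ProK, 33, 0 and 36 in IP_RNase and 1, 2 and 10 in crude_RNase. Replicate 2 held few or no reads in IP_RNase_ProK and IP_RNase, replicates 1 and 2 held few in crude_RNase, and the 3 mitoplast_RNase libraries were alike. The edgeR fit called it higher in IP_RNase than in crude_RNase by 2.26 ± 0.617 (log2 fold change ± SE, edgeR adjusted p = 0.0135), although the ranges overlapped. The call was lost without IP_RNase replicate 1 (edgeR adjusted p = 0.153) or 3 (0.157), without crude_RNase replicate 1 (0.0760), and in DESeq2 with its independent filtering off (0.546). In mitoplast_RNase against crude_RNase, where the ranges were separate, the log2 fold change was 1.85 ± 0.640 and did not pass (edgeR adjusted p = 0.0805).

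Other SNORD115 copies differed in direction. SNORD115 ENSRNOG00000057912 had 11, 12 and 13 reads in mitoplast_RNase, 5, 5 and 6 in IP_RNase_ProK, 9, 9 and 5 in IP_RNase and 10, 11 and 8 in crude_RNase. Its log2 fold changes were -1.17 ± 0.446 for IP_RNase_ProK against crude_RNase (edgeR adjusted p = 0.121) and 1.18 ± 0.427 for mitoplast_RNase against IP_RNase_ProK (edgeR adjusted p = 1.00), without a call. The most abundant copy, ENSRNOG00000065632, had 29, 23 and 16 reads in mitoplast_RNase, 21, 14 and 25 in IP_RNase_ProK, 19, 8 and 21 in IP_RNase and 24, 13 and 14 in crude_RNase. The groups overlapped. Summed over the 25 copies, SNORD115 stood at 47.6 ± 3.02 CPM in mitoplast_RNase, 41.6 ± 1.90 in IP_RNase_ProK, 54.0 ± 7.44 in IP_RNase and 52.0 ± 5.33 in crude_RNase. The IP_RNase_ProK libraries, at 40.4 to 43.8 CPM, were the 3 lowest of the 12, and the other groups overlapped. They were also the 3 lowest per 100 olfactory receptor reads, at 0.312 to 0.341 against at least 0.344 elsewhere.

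SNORD116 was led by ENSRNOG00000066861, with 36, 26 and 22 reads in mitoplast_RNase, 46, 23 and 16 in IP_RNase_ProK, 14, 38 and 32 in IP_RNase and 17, 15 and 14 in crude_RNase. The crude_RNase libraries were close together and the captured ones spread widely, and in CPM mitoplast_RNase alone lay wholly above crude_RNase. None of its 6 comparisons passed, and the log2 fold change for mitoplast_RNase against crude_RNase was 0.57 ± 0.329 (edgeR adjusted p = 0.400). SNORD116 ENSRNOG00000069415 had 16, 8 and 8 reads in mitoplast_RNase, 11, 25 and 6 in IP_RNase_ProK, 31, 22 and 10 in IP_RNase and 12, 8 and 11 in crude_RNase. Its log2 fold change for mitoplast_RNase against IP_RNase was -1.16 ± 0.397, not called (edgeR adjusted p = 0.369). The 9 copies summed to 19.1 ± 4.24 CPM in mitoplast_RNase, 18.9 ± 3.06 in IP_RNase_ProK, 24.6 ± 1.09 in IP_RNase and 19.3 ± 0.731 in crude_RNase. The IP_RNase libraries, at 23.3 to 25.4 CPM, lay above the other 9 libraries, whose highest was 22.8 CPM. This separation depended on the scale. Per 100 olfactory receptor reads, IP_RNase (0.159 to 0.192) overlapped with mitoplast_RNase (0.118 to 0.175), IP_RNase_ProK (0.120 to 0.164) and crude_RNase (0.150 to 0.172).

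**Figure D2:**
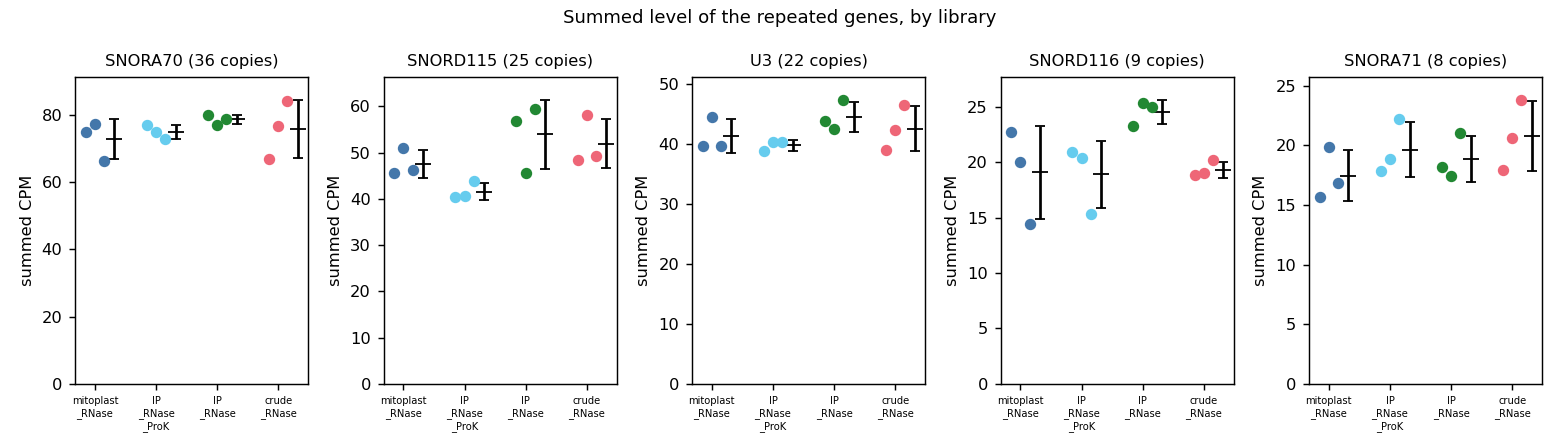
Summed TMM-scaled CPM of the identifiers that share the names SNORA70, SNORD115, U3, SNORD116 and SNORA71, by library; points are libraries, and the bar beside them is the group mean with its SD (n = 3). For SNORD115 the IP_RNase_ProK libraries sit at 40.4 to 43.8 CPM below the rest, for SNORD116 the IP_RNase libraries sit at 23.3 to 25.4 CPM above the rest, and for SNORA71 all groups overlap.

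Among the other C/D box genes, Snord13 (ENSRNOG00000070981), known in human cells to guide acetylation of 18S ribosomal RNA, had 8, 12 and 7 reads in mitoplast_RNase, 23, 13 and 18 in IP_RNase_ProK, 5, 5 and 9 in IP_RNase and 8, 5 and 6 in crude_RNase. The IP_RNase_ProK libraries were the 3 highest of the 12, and their CPM did not overlap with any other group. The log2 fold changes were 1.27 ± 0.384 against IP_RNase (edgeR adjusted p = 0.237) and 1.16 ± 0.386 against crude_RNase (edgeR adjusted p = 0.0579), and -0.95 ± 0.354 for mitoplast_RNase against IP_RNase_ProK (edgeR adjusted p = 1.00), so none passed.

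SNORD14 (ENSRNOG00000057762), which in yeast is needed for 18S ribosomal RNA, had 5, 11 and 6 reads in mitoplast_RNase, 11, 6 and 11 in IP_RNase_ProK, 10, 7 and 9 in IP_RNase and 2, 4 and 2 in crude_RNase. In CPM, IP_RNase_ProK and IP_RNase lay above crude_RNase, while mitoplast_RNase overlapped with it. The log2 fold change was 1.44 ± 0.543 for IP_RNase_ProK against crude_RNase (edgeR adjusted p = 0.113) and 1.55 ± 0.548 for IP_RNase against crude_RNase (edgeR adjusted p = 0.0809), and neither passed.

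SNORD15 (ENSRNOG00000055569), a methylation guide, was the second most variable gene, with 31, 37 and 10 reads in mitoplast_RNase, 14, 19 and 6 in IP_RNase_ProK, 4, 4 and 17 in IP_RNase and 8, 28 and 10 in crude_RNase. The groups overlapped in each of the comparisons. Its log2 fold changes were -0.99 ± 0.491 for IP_RNase against crude_RNase (edgeR adjusted p = 0.278) and 1.44 ± 0.445 for mitoplast_RNase against IP_RNase (edgeR adjusted p = 0.301). Snord17 (ENSRNOG00000052573) had 24, 35 and 31 reads in mitoplast_RNase, 17, 19 and 12 in IP_RNase_ProK, 18, 17 and 33 in IP_RNase and 19, 31 and 14 in crude_RNase. The mitoplast_RNase libraries lay above those of IP_RNase_ProK, with no call.

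4 further C/D box genes were at an extreme of a comparison without a call. Snord8 (ENSRNOG00000057709) had 5, 12 and 4 reads in mitoplast_RNase, 3, 8 and 5 in IP_RNase_ProK, 19, 6 and 16 in IP_RNase and 13, 13 and 4 in crude_RNase. Its log2 fold change for IP_RNase_ProK against IP_RNase was -1.55 ± 0.471 (edgeR adjusted p = 0.237). Snord71 (ENSRNOG00000059926) had 7, 5 and 4 reads in mitoplast_RNase against 6, 13 and 11 in crude_RNase, with a difference of -1.19 ± 0.461 on the log2 scale (edgeR adjusted p = 0.138). Snord53 (ENSRNOG00000054970) had 6, 5 and 7 reads in mitoplast_RNase against 11, 9 and 17 in IP_RNase, with a difference of -1.21 ± 0.442 on the log2 scale (edgeR adjusted p = 0.393). SNORD22 (ENSRNOG00000060760), which acts in 18S ribosomal RNA processing in frog, had 8, 8 and 6 reads in mitoplast_RNase against 10, 20 and 11 in IP_RNase_ProK, with a difference of -0.86 ± 0.427 on the log2 scale (edgeR adjusted p = 1.00). The ranges of Snord53 and SNORD22 were separate in CPM, and those of Snord8 and Snord71 overlapped.

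In the H/ACA box class, only a SNORA70 copy was called. SNORA70 ENSRNOG00000056004 had 14, 11 and 9 reads in mitoplast_RNase, 14, 10 and 12 in IP_RNase_ProK, 13, 13 and 16 in IP_RNase and 9, 4 and 1 in crude_RNase. The highest crude_RNase library equalled the lowest captured one in raw reads. In CPM, IP_RNase_ProK and IP_RNase lay above crude_RNase, while mitoplast_RNase overlapped with it. The gene was higher in IP_RNase than in crude_RNase by 1.46 ± 0.445 (log2 fold change ± SE, edgeR adjusted p = 0.0331). The call was lost when any IP_RNase library was left out (edgeR adjusted p = 0.0706 to 0.113) and without crude_RNase replicate 2 (0.0807) or 3 (0.204). It was also lost with scaling on olfactory receptor genes (0.0506), in a fit of only the 2 groups compared (0.0502) and in DESeq2 with its filtering off (0.116).

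The SNORA70 copy ENSRNOG00000054115 stood at the other end of mitoplast_RNase against crude_RNase. It had 6, 5 and 8 reads in mitoplast_RNase, 10, 9 and 11 in IP_RNase_ProK, 4, 14 and 12 in IP_RNase and 13, 14 and 11 in crude_RNase. The log2 fold change of -1.28 ± 0.426 did not pass (edgeR adjusted p = 0.0670). The most abundant copy, ENSRNOG00000058395, had 23, 24 and 15 reads in mitoplast_RNase, 20, 27 and 20 in IP_RNase_ProK, 22, 10 and 17 in IP_RNase and 12, 8 and 14 in crude_RNase. Over all 36 copies SNORA70 summed to 72.8 ± 5.89 CPM in mitoplast_RNase, 75.0 ± 2.10 in IP_RNase_ProK, 78.6 ± 1.42 in IP_RNase and 75.8 ± 8.65 in crude_RNase. The IP_RNase_ProK sums lay just below the IP_RNase sums (at most 77.06 against at least 77.14 CPM), and the other pairs of groups overlapped. Per 100 olfactory receptor reads these 2 groups overlapped too (0.568 to 0.604 in IP_RNase_ProK and 0.546 to 0.590 in IP_RNase).

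Of the other named H/ACA box genes, none was called in any of the 6 comparisons. SNORA74 (ENSRNOG00000061440) had 23, 26 and 14 reads in mitoplast_RNase, 15, 14 and 14 in IP_RNase_ProK, 18, 22 and 18 in IP_RNase and 18, 21 and 14 in crude_RNase. Snora47 (ENSRNOG00000044194) had 17, 11 and 32 reads in mitoplast_RNase, 20, 12 and 17 in IP_RNase_ProK, 17, 17 and 15 in IP_RNase and 17, 6 and 11 in crude_RNase. SNORA71 ENSRNOG00000056385 had 7, 24 and 14 reads in mitoplast_RNase, 25, 12 and 19 in IP_RNase_ProK, 12, 11 and 18 in IP_RNase and 20, 17 and 13 in crude_RNase. In CPM, every IP_RNase_ProK library lay below those of IP_RNase and crude_RNase for SNORA74, while Snora47 and SNORA71 overlapped in all pairs of groups. SNORA73 (ENSRNOG00000052033), whose yeast counterpart acts in 18S ribosomal RNA processing, had 9, 12 and 11 reads in mitoplast_RNase, 13, 6 and 8 in IP_RNase_ProK, 1, 7 and 5 in IP_RNase and 8, 6 and 6 in crude_RNase. Its log2 fold changes against IP_RNase were 1.09 ± 0.480 in mitoplast_RNase (edgeR adjusted p = 0.494) and 0.81 ± 0.498 in IP_RNase_ProK (edgeR adjusted p = 0.665).

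Of the Cajal body RNAs, Scarna6 (ENSRNOG00000053606) had 16, 12 and 16 reads in mitoplast_RNase, 23, 15 and 12 in IP_RNase_ProK, 18, 5 and 11 in IP_RNase and 10, 22 and 20 in crude_RNase. The groups overlapped in all 6 comparisons. Scarna10 (ENSRNOG00000060559) had 13, 7 and 7 reads in mitoplast_RNase, 9, 7 and 7 in IP_RNase_ProK, 12, 6 and 8 in IP_RNase and 5, 29 and 7 in crude_RNase. A single crude_RNase library, replicate 2, was far above the rest. For IP_RNase against crude_RNase its log2 fold change was -0.77 ± 0.454 (edgeR adjusted p = 0.391), and without that library the log2 fold change was 0.44.

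Snorc (ENSRNOG00000016606), the protein-coding gene in the set, had 67, 77 and 59 reads in mitoplast_RNase, 78, 70 and 72 in IP_RNase_ProK, 41, 60 and 61 in IP_RNase and 62, 40 and 51 in crude_RNase. It was not called in any comparison, and the groups overlapped.

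**Figure D3:**
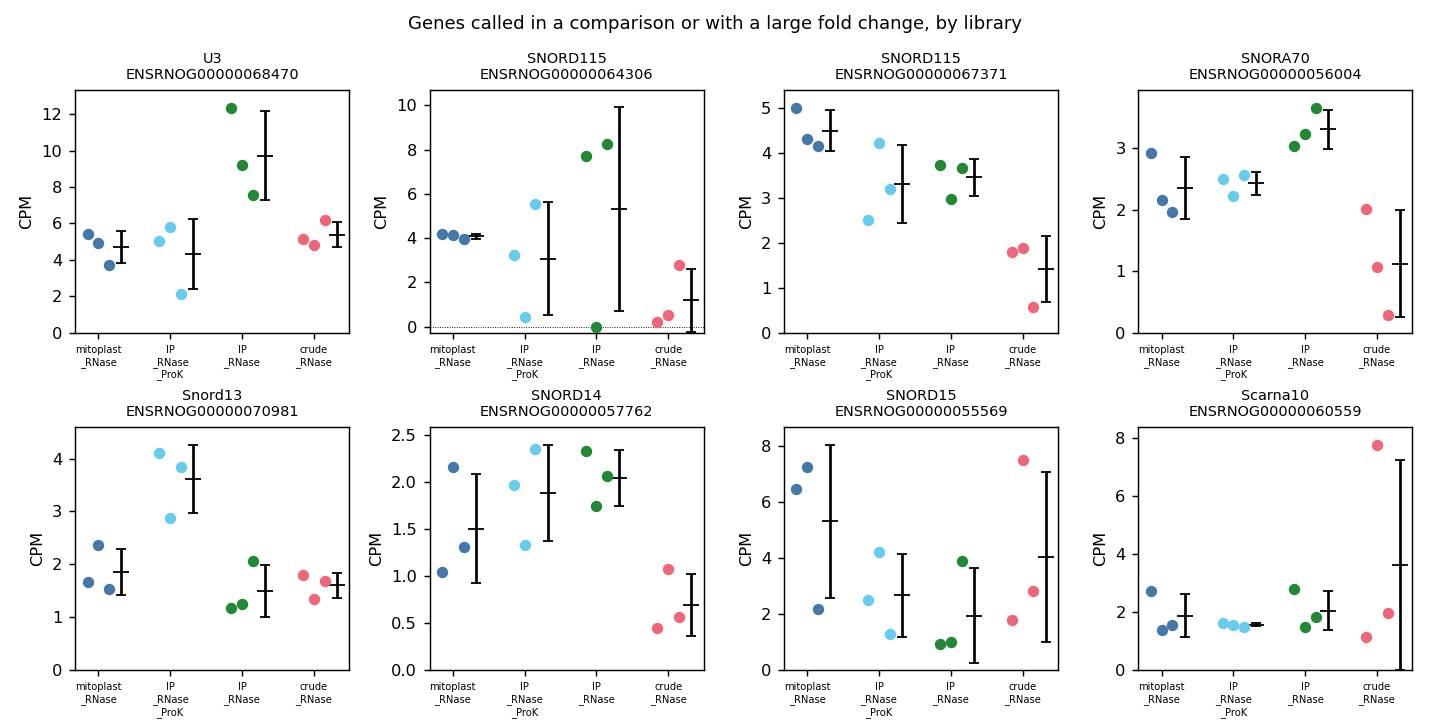
TMM-scaled CPM of 8 genes that were called or had one of the extreme fold changes of a comparison, by library; points are libraries, and the bar beside them is the group mean with its SD (n = 3), which falls below 0 for SNORD115 ENSRNOG00000064306 in crude_RNase. The U3 copy is highest in the 3 IP_RNase libraries, Snord13 in the 3 IP_RNase_ProK libraries, and Scarna10 in crude_RNase replicate 2 alone.

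For IP_RNase against crude_RNase, 3 of the 85 tested genes were higher and 0 lower, beside 6.36% of all tested genes called in either direction, 1.26% higher and 5.09% lower. The olfactory receptor genes leaned the same way, with 45 of 1099 tested called higher and 0 lower. The 85 genes had log2 fold changes from -0.99 to 2.26 with a median of 0.09, beside a median of 0.01 over all genes and 0.23 over the olfactory receptor genes. With no filter on low counts, the median of the members turned to -0.09, beside 0.01 over all genes, so its sign depended on the filter. In CPM, 6 genes (7.06%) had IP_RNase wholly above crude_RNase and 3 (3.53%) wholly below. The shares were 8.61% and 10.8% of all tested genes and 19.1% and 1.36% of the olfactory receptor genes.

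For IP_RNase_ProK against crude_RNase, edgeR called 0 of the 85 genes, beside 6.49% of all tested genes in either direction, 1.45% higher and 5.04% lower. At an unadjusted p under 0.05 edgeR had 13 of them (15.3%), beside 17.8% of all tested genes, and DESeq2 called 0. The median log2 fold change was 0.09, beside 0.00 over all genes and 0.11 over the olfactory receptor genes. Without the filter on low counts it turned to -0.14, again beside 0.00 over all genes. Ranges were separate for 8 genes above and 4 below crude_RNase, beside 9.12% and 11.3% of all tested genes.

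For mitoplast_RNase against crude_RNase, 1 gene was higher and 0 lower, beside 5.54% of all tested genes called in either direction, 0.997% higher and 4.54% lower. The log2 fold changes ran from -1.28 to 1.85 with a median near 0, beside 0.10 over the olfactory receptor genes. Without the filter on low counts the median of the members was -0.09, beside 0.01 over all genes. Ranges were separate for 7 genes above and 7 below, beside 8.26% and 10.7% of all tested genes.

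Within the captured preparations, edgeR called 1 of the 85 genes lower and 0 higher in IP_RNase_ProK against IP_RNase, the U3 copy above, beside 0.14% of all tested genes in either direction, 0.0302% higher and 0.11% lower. The median log2 fold change of the 85 genes was -0.12, with 34 positive and 51 negative, beside 0.00 over all genes and -0.12 over the olfactory receptor genes. For mitoplast_RNase against IP_RNase, edgeR called 0 of the 85 genes, beside 0.155% of all tested genes in either direction, 0.0227% higher and 0.132% lower. At an unadjusted p under 0.05 edgeR had 10 (11.8%), beside 8.93% of all tested genes, and DESeq2 with filtering off called 0. For mitoplast_RNase against IP_RNase_ProK, edgeR called 0 of the 85, beside 0% of all tested genes, and DESeq2 called 0. There edgeR had 6 (7.06%) at an unadjusted p under 0.05, beside 2.80% of all tested genes. The 3 comparisons had separate ranges for 5, 6 and 5 genes above and for 6, 9 and 6 below. Beside those counts, the shares over all tested genes were 8.36% and 8.27% in IP_RNase_ProK against IP_RNase, 7.9% and 8.05% in mitoplast_RNase against IP_RNase, and 4.71% and 4.76% in mitoplast_RNase against IP_RNase_ProK.

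**Figure D4:**
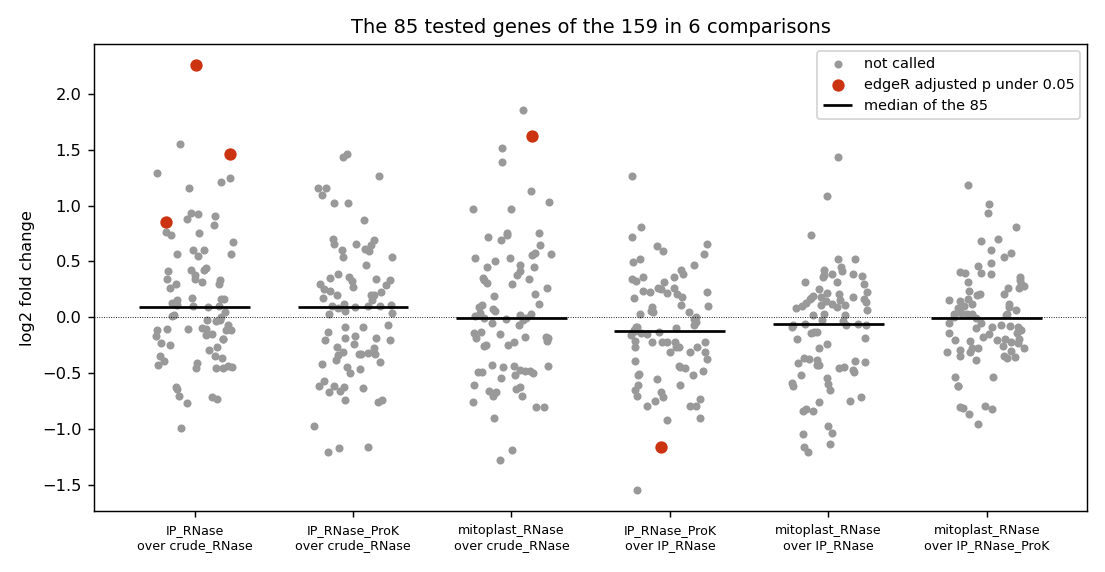
Log2 fold changes of the 85 tested genes in the 6 comparisons; each point is a gene, large red points passed the edgeR threshold and black lines are medians. Most points lie within 1 log2 unit of 0 in every comparison, and the medians run from -0.12 to 0.09.

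Replicates of a group differed by somewhat more than counting error. For each gene the spread was measured as a Pearson statistic per degree of freedom, whose mean is expected to be 1 when replicates differ by counting error alone. Its median was 1.34 over the 85 tested genes, 1.27 over the olfactory receptor genes and 1.29 over all tested genes. It exceeded 2 in 22 of the 85 genes (25.9%), in 19.2% of the olfactory receptor genes and in 19.9% of all tested genes. Some genes would exceed 2 by counting error alone, and that share was not computed. The highest values belonged to SNORD115 ENSRNOG00000064306 at 8.13, SNORD15 ENSRNOG00000055569 at 6.44, followed by SNORA71 ENSRNOG00000060263 and Scarna10, both at 4.23. This statistic pools the 4 groups, which were unlike. Between pairs of replicates, chi-square per degree of freedom on raw library totals was also computed. Over the members it was 1.14 to 1.33 in mitoplast_RNase and 1.32 to 1.54 in IP_RNase_ProK. It was 1.39 to 1.63 in IP_RNase and 1.46 to 1.93 in crude_RNase. Over all genes the values were 1.30 to 1.88, 1.24 to 1.80, 2.02 to 7.31 and 4.43 to 12.1 in the same order.

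**Figure D5:**
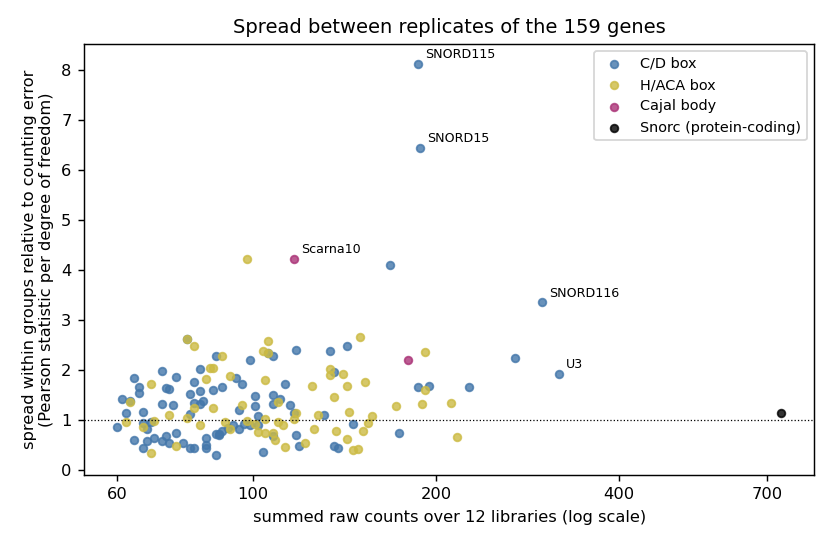
Spread between replicates of the 159 genes (Pearson statistic per degree of freedom, with 1 as the mean expected from counting error, dotted line) against their summed raw reads over 12 libraries on a log axis, coloured by class. Most genes lie below 3, and the points labelled SNORD115 at 8.13 and SNORD15 at 6.44 stand apart.

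On the TMM scale, most of the listed snoRNA host genes were lower in the captured groups than in crude_RNase. The list, from host relations known in human, had 30 genes in the table and 28 tested. Against crude_RNase, 20 were lower in mitoplast_RNase, 20 in IP_RNase_ProK and 21 in IP_RNase, with 0 higher, beside 4.54%, 5.04% and 5.09% of all tested genes called lower. The median log2 fold changes of the list were -1.29 in mitoplast_RNase, -1.37 in IP_RNase_ProK and -1.33 in IP_RNase. The other tested host genes did not pass, among them 2 chosen after their values were seen, Chd8 at 0.12 and Nop56 at -0.10 in IP_RNase against crude_RNase (edgeR adjusted p = 0.480 and 0.766). Tpt1, which encodes a translationally controlled tumour protein, had 19.5 ± 0.986 CPM in mitoplast_RNase, 19.0 ± 0.722 in IP_RNase_ProK, 22.0 ± 2.13 in IP_RNase and 232 ± 31.5 in crude_RNase (mean ± SD, n = 3 each). Its log2 fold change for IP_RNase against crude_RNase was -3.39 ± 0.0995 (edgeR adjusted p = 3.52e-34). Other called genes in that comparison included Rpl4, Atp5f1b, Rpl23, Rps12, Rpsa, Rpl3, Rpl23a, Rps3, Rack1, Eef1b2, Rpl7a, Rpl21, Hspa8, Rps2, Eif4a2, Ncl, Eif4a1 and Prrc2a, and most of these encode ribosomal proteins or translation factors. Their log2 fold changes ranged from -2.75 for Rpl4 to -0.29 for Prrc2a. The direction rests on the scaling for part of the list only: by library size alone, 15 host genes were lower and 8 higher in IP_RNase than in crude_RNase. That scaling moved the median of all genes to 1.03 in this comparison.

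Only members whose name matched a RefSeq symbol, 25 of the 52 names, could be placed, and only holding genes that were themselves tested were kept. On that basis 19 members lay inside another gene, and 11 of the 19 were tested. Strand was not considered, so a holding gene need not be the host of the member inside it. The others of the 159 genes were not placed or had no such gene. In IP_RNase against crude_RNase, 3 of the 19 holding genes were lower and 0 higher, beside 5.09% and 1.26% of all tested genes. The rest did not pass, with log2 fold changes from -0.41 for Snx5 to 0.16 for Srcap. The 3 that passed are given below. Rack1, which encodes a ribosome-bound scaffold protein, had 23.6 ± 1.15 CPM in mitoplast_RNase, 24.1 ± 0.544 in IP_RNase_ProK, 24.5 ± 3.17 in IP_RNase and 71.5 ± 1.16 in crude_RNase. Snord95 (ENSRNOG00000057012), which lies within it, had 6, 7 and 8 reads in mitoplast_RNase, 6, 5 and 11 in IP_RNase_ProK, 8, 5 and 5 in IP_RNase and 2, 10 and 2 in crude_RNase. It was not tested. Nop53, a ribosome biogenesis gene, had 34.6 ± 1.83 CPM in mitoplast_RNase, 33.7 ± 2.79 in IP_RNase_ProK, 31.7 ± 0.914 in IP_RNase and 78.2 ± 7.85 in crude_RNase. Snord23 (ENSRNOG00000059444), within Nop53, had 5, 9 and 14 reads in mitoplast_RNase, 11, 6 and 3 in IP_RNase_ProK, 13, 8 and 7 in IP_RNase and 14, 14 and 2 in crude_RNase. It was not tested either. Tardbp, which encodes an RNA-binding protein, had 24.7 ± 1.77 CPM in mitoplast_RNase, 27.1 ± 3.11 in IP_RNase_ProK, 26.0 ± 4.75 in IP_RNase and 35.7 ± 1.63 in crude_RNase. Snora21 (ENSRNOG00000052741), within Tardbp, had its highest reads in the captured groups, with 19, 10 and 7 reads in mitoplast_RNase, 14, 9 and 7 in IP_RNase_ProK, 9, 8 and 11 in IP_RNase and 4, 4 and 3 in crude_RNase. It did not pass (mitoplast_RNase against crude_RNase, log2 fold change 1.39, edgeR adjusted p = 0.0888).

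A list of genes for proteins that assemble or bind these RNAs had 23 identifiers in the table, all tested, of which 2 were lower and 0 higher than in crude_RNase in each of the 3 captured groups, beside the same 4.54 to 5.09% of all tested genes called lower. The pair was the same each time, Ncl and Npm1, which encode the nucleolar proteins nucleolin and nucleophosmin. Ncl had 37.1 ± 3.53 CPM in mitoplast_RNase, 42.2 ± 5.95 in IP_RNase_ProK, 37.0 ± 1.71 in IP_RNase and 78.1 ± 7.38 in crude_RNase. Npm1 had 26.3 ± 5.05 CPM in mitoplast_RNase, 26.6 ± 2.11 in IP_RNase_ProK, 25.1 ± 1.40 in IP_RNase and 61.2 ± 10.8 in crude_RNase. For IP_RNase against crude_RNase the log2 fold changes were -1.07 ± 0.0989 for Ncl (edgeR adjusted p = 8.03e-13) and -1.28 ± 0.122 for Npm1 (edgeR adjusted p = 2.52e-12). By library size alone, which moved the median of all genes to 1.03, that comparison gave 21 genes of the list higher and 0 lower. Fbl, named here for its role as the C/D box methyltransferase gene, had a log2 fold change of -0.22 ± 0.125 in that comparison (edgeR adjusted p = 0.363).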

How the data were processed

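Values in the table are read counts, whole numbers per Ensembl gene that the authors deposited without normalisation, for 12 libraries and 0 columns of other samples. The submitters' processing notes name FastQC 0.74, cutadapt 4.6, STAR 2.7.11a, HTSeq and the build mRatBN7.2. Strand setting, annotation release and the fate of multi-mapping reads were not given in the sources read here, so reads of a snoRNA cannot be separated from those of an overlapping or antisense gene. Crude libraries were grouped by title and design text, although their source label names immunoprecipitation.

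The members, gene lists and tests were chosen with earlier results of these data known. edgeR 4.0.16 in R 4.3.3 fitted all 12 libraries in 1 model of 4 groups with TMM scaling, after filterByExpr with a minimum count of 10 left 26483 genes (86.7%). The quasi-likelihood F test was adjusted by Benjamini-Hochberg within each of 6 comparisons, at a threshold of 0.05. The SE is the log2 fold change divided by the square root of F. Because all libraries came from 1 animal, p-values and SDs cover only the spread between aliquots. Alternatives included DESeq2 1.42.0. The script was tested on simulated data. Named genes were the 10 with the largest sums, all called genes, the 2 highest and 2 lowest fold changes of each comparison, and U3, U8 and Cajal body genes. U3 copies that were not tested are given as a range and in the sum. A RefSeq table of assembly GRCr8 supplied names, gene types and neighbours only, and no sequences are printed.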

Additional observations from a re-analysis of the deposited data

How the results depend on the processing

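Counts of called genes depended on scaling and filter. With library-size scaling, which shifts the median of all genes by 1.03 to 1.09 (log2) against crude_RNase, 57 genes were called in mitoplast_RNase, 58 in IP_RNase_ProK and 57 in IP_RNase against crude_RNase, and 0 in IP_RNase_ProK against IP_RNase. The median of the tested members moved with all genes, to 1.06, 1.16 and 1.10, so these counts cannot be read as a result about the members. The share of all tested genes called is not given here for the alternatives. Scaling on olfactory receptor genes gave 2 in mitoplast_RNase and 1 in IP_RNase against crude_RNase, and 0 in IP_RNase_ProK against IP_RNase. With no filter, 2 were called in mitoplast_RNase and 1 in IP_RNase_ProK against crude_RNase. A minimum count of 30 left 4 of the genes and gave 0 in mitoplast_RNase and 1 in IP_RNase against crude_RNase. Fits of only the 2 groups compared gave 2 in mitoplast_RNase and 1 in IP_RNase against crude_RNase, and 2 in mitoplast_RNase against IP_RNase. DESeq2 called 0 in IP_RNase against crude_RNase, also with independent filtering off, and with it off 0 in IP_RNase_ProK against IP_RNase; with filtering it gave no adjusted p for any of the 85 genes in IP_RNase_ProK and mitoplast_RNase against IP_RNase. Same-numbered libraries showed no shared deviation from their group means (r from -0.102 to 0.0665 over 18 pairs of libraries). Counting error can hide a shared deviation, and the labels do not say what the numbers mark, so pairing is undetermined. A replicate block gave 2 called genes in mitoplast_RNase against crude_RNase. Leaving out 1 library at a time gave 1 to 3 calls in mitoplast_RNase, 0 to 2 in IP_RNase_ProK and 1 to 2 in IP_RNase against crude_RNase, 0 to 1 in IP_RNase_ProK against IP_RNase, and 0 in both remaining comparisons; these fits test more genes because the smaller group lowers the filter. For the summed share in mitoplast_RNase, IP_RNase_ProK, IP_RNase and crude_RNase, a sum of at least 30 gave 0.0459, 0.0448, 0.0464 and 0.0222%, and a sum of at least 120 gave 0.0183, 0.0175, 0.0181 and 0.00812%. Olfactory receptor reads as denominator, chosen after seeing the data, gave 2.60, 2.51, 2.54 and 2.90 per 100. Without mitochondrial reads it was 0.0405, 0.0436 and 0.0393% in IP_RNase_ProK, IP_RNase and crude_RNase, and without Snorc, also chosen afterwards, 0.0376% in IP_RNase_ProK and 0.0392% in IP_RNase. The share ranged from 0.0390 to 0.0418, 0.0391 to 0.0397, 0.0404 to 0.0411 and 0.0189 to 0.0204% when each library of a group was left out. In IP_RNase against crude_RNase, SNORD15 ENSRNOG00000055569 turned to 0.038 and Scarna10 to 0.27 with library-size scaling, and Scarna10 ranged from -1.25 to 0.44 as single libraries were left out, the positive value without crude_RNase replicate 2. Of the other alternatives for named genes, 272 kept direction and side of the threshold, 27 lost a call and 12 gained one. The cause was not tested. Few reads limit what could be detected: replicates of most genes differ by several reads.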

Other observations

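Of the 189 genes that matched by name but fell under the sum of 60 reads, 62 had no read in any library. The rest include SNORD116 ENSRNOG00000064016, chosen after its values were seen, whose 38 reads all came from 2 libraries, 25 from IP_RNase replicate 3 and 13 from crude_RNase replicate 2. The other 10 libraries had 0 reads each.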
